A study of Homo sapiens with 6 samples.

Results

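The genes described here encode the TGF-beta, BMP and activin signalling pathway, from its ligands to the ID transcripts it controls. They were chosen by symbol alone, as the rows for TGFB1 to TGFB3, the latent TGF-beta binding proteins, the BMPs, the inhibin and activin subunits, the TGF-beta, BMP and activin receptors, the SMADs, SMURF1, SMURF2, the ID genes, BAMBI, NOG, FST, GREM1, SKI, SKIL and ENG. The rule matched 47 of the 15794 human genes in the table, 46 of them protein coding and 1 an antisense RNA, ACVR2B-AS1. BMP3, BMP5, BMP7, BMP10, BMP15, INHBA, ACVRL1, GREM1 and ID4 were not analysed here.

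Ligands of this family are secreted dimers. TGF-beta itself is released bound to a latent binding protein and must be freed from it before it can act. A ligand joins type I and type II receptor kinases, the type I receptor phosphorylates SMAD2 and SMAD3 (TGF-beta and activin) or SMAD1, SMAD5 and SMAD9 (BMP), and these enter the nucleus with SMAD4. The pathway restrains itself through SMAD6, SMAD7, BAMBI and secreted antagonists, several of which are transcribed in response to it. ID1, ID2 and ID3, inhibitors of basic helix-loop-helix factors, are standard BMP target genes. Among the nuclear partners described for SMAD3 are the pocket protein p107 and an E2F factor bound to its DP partner.

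The cells were eHAP, a haploid human line derived from HAP1, a line of chronic myeloid leukaemia origin. All 6 samples carried Cas9, and per the labels' protocols they received a plasmid with guide RNAs and puromycin resistance, were selected with puromycin between 24 and 72 h, and were harvested at 5 days. The 2 groups were 3 biological replicates with TFDP1 as the knockout gene and 3 with none, labelled wild-type; the sources used here do not say what the control plasmid carried. The edited cells were used without a stated cloning step, and each sample was mixed with Drosophila S2 cells as a spike-in (10000 for 500000 eHAP cells).

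Each gene has 1 set of values in the authors' deposited table: the log2 fold change, the mean level over the samples as log2 of CPM, a gene's share of its library's reads, a likelihood ratio with its p-value, and an adjusted p (FDR). All levels, fold changes and adjusted p below come from that table unless an alternative is named. It gives nothing per sample, so the depth of the libraries and the spread of each gene over the replicates are unknown. The approximate standard error (SE) given below divides the absolute log2 fold change by the root of that ratio, and it carries the authors' estimate of replicate variation. The targeted gene TFDP1, which encodes the E2F partner DP1 (chromosome 13, 113584721 to 113641470, plus strand), had a log2 fold change of 1.17 (SE 0.03), a level of 226 CPM and an adjusted p of 1.08e-283. The sources used here do not say which group stands in the numerator. Positive below therefore means higher where TFDP1 transcript was higher (the TFDP1-high group), and negative means lower there; whether that group is the knockout or the control cannot be told apart from this table.

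Of the 47 members, 7 were called positive and 10 negative at the authors' adjusted p under 0.05, and 30 were not called. The called share was 36.2%, against 39.5% of all genes in the table, 17.3% positive and 22.2% negative. Restricted to genes from the median level (23.5 CPM) upwards, it was 9 of 21 members against 51.9% of all such genes, so calls were no more frequent among the members than among genes of the whole table. The median log2 fold change of the members was -0.05, against -0.03 over all genes. After re-centring so that the median ribosomal protein gene lies at 0 (it lay at -0.08), the members split into 13 positive and 9 negative calls, and over all genes the positive share of the calls went from 43.9% to 62.5%.

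Calls are given here by role, each with few calls, and no difference between roles was tested. Over all genes, 3506 of the 6244 calls were negative. All called receptors (2 of 12) were positive, as were 3 of the 4 called SMADs. Both called latent binding proteins, both called ID genes and all 3 antagonists acting at the ligand or receptor (NOG, FST and BAMBI) were negative. These 3 lie below the median level, FST at only 0.169 CPM, and are part of the 7 negative regulators. Of those 7, 3 were negative, 1 positive (SMURF2) and 3 not called. Changes were mostly small, and FST was the 1 called member that differed by at least 2-fold. Over the 17 called members the median size was 1.40-fold, against 1.26-fold over all called genes. Of the called members that kept their call under every alternative they entered (genes under the median level did not enter the filter on it), those above 1 CPM lie, on GRCh38 in GENCODE 29, as TGFBR2 on chromosome 3 (30606502 to 30694142, plus strand), SMAD9 on chromosome 13 (36844831 to 36920765, minus strand), LTBP1 on chromosome 2 (32946972 to 33399509, plus strand), SMAD6 on chromosome 15 (66702228 to 66782848, plus strand) and BAMBI on chromosome 10 (28677342 to 28682939, plus strand). All 5 are protein coding, and FST is the other such member. TGFB1, LTBP3, NOG, ID1 and ID3 lost their calls only under an alternative minimum of 1.5-fold.

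**Figure D1:**
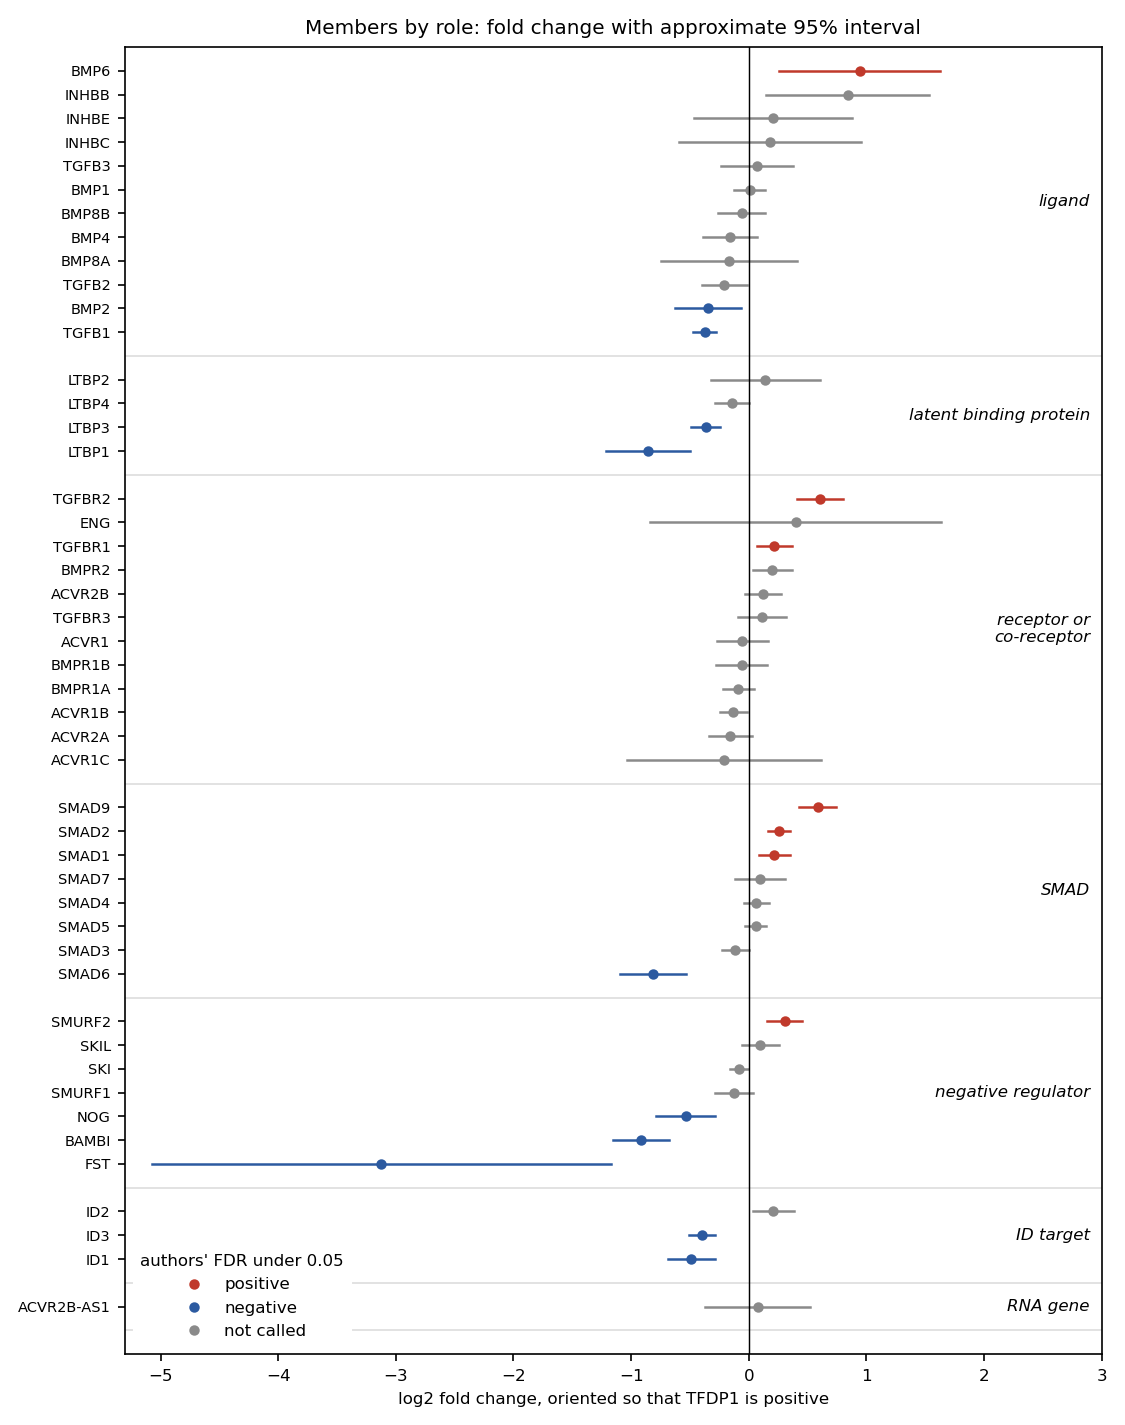
Log2 fold change of the 47 members (x axis) by role, with points for the deposited value and lines for the approximate 95% interval; red is called positive, blue called negative and grey not called at the authors' FDR under 0.05. The called receptors lie right of 0 and the called latent binding proteins, antagonists and ID genes left of it, and FST has the widest interval, from -5.07 to -1.17.

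Promoter sequence is shown for 4 negative members that BMP or TGF-beta signalling is known to induce, SMAD6, BAMBI, ID1 and ID3. RefSeq promoter windows on GRCh38.p14, 250 bases before to 50 after the annotated start, were matched by symbol for 42 of the 47 members. The stretches below are the 250 bases upstream of the start on the strand of the gene, at chr15:66701986-66702235 (plus strand) for SMAD6, chr10:28677271-28677520 (plus) for BAMBI, chr20:31605039-31605288 (plus) for ID1 and chr1:23559502-23559751 (minus) for ID3. Capitals mark matches to the SMAD palindrome or the GC-rich BMP element defined in the next paragraph.
SMAD6: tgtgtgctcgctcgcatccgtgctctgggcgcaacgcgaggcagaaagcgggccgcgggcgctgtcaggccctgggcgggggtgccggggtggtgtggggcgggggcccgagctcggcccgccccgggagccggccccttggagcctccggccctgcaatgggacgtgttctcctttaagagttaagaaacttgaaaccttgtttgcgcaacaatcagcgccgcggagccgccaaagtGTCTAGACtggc
BAMBI: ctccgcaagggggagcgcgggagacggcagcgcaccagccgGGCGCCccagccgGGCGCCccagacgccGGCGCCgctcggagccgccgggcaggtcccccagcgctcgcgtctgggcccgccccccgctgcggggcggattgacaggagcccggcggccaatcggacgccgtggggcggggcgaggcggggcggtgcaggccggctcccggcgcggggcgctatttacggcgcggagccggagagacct
ID1: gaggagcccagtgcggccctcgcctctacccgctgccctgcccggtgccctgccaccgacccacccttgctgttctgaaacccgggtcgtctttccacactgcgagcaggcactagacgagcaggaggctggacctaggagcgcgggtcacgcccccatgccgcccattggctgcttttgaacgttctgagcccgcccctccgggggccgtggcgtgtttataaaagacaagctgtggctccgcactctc
ID3: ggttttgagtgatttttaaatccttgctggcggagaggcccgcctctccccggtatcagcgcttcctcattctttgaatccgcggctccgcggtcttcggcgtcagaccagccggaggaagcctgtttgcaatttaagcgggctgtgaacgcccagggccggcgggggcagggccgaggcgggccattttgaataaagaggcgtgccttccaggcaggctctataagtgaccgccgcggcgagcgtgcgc

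The SMAD palindrome GTCTAGAC, which reads the same on both strands, was found in the window of 1 of the 42 members, SMAD6, where it spans -12 to -5 from the start. It occurs in 0.142% of the 11251 windows of genes in the table. The BMP element GGCGCC, also palindromic and without overlap with the former, was found in 12 of the 42 members (28.6%), against 30.4% of the windows of genes in the table. BAMBI holds 3 copies of it between -209 and -176. Of the called members SMAD2 also has a copy, at -78 to -73, and the other 10 windows with it belong to members that were not called. The E2F motif, searched on both strands as TTTCCCGC, TTTCGCGC, TTTGCCGC or TTTGGCGC, was in 0 of the 42 windows and in 5.19% of the windows of genes in the table. A match is a description of the sequence only, and a window without one says nothing about sites elsewhere in the gene.

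Among the TGF-beta ligands, TGFB1 was the most abundant, at 96.8 CPM or 34.9 CPM per kb of its longest transcript. It was negative by 1.30-fold (log2 fold change -0.38, SE 0.05, adjusted p = 2.6e-13). If the mean level is the average of the 2 groups, TGFB1 stood at 84.2 CPM in the TFDP1-high group and at 109 CPM in the other. TGFB1 (chromosome 19, minus strand) shares exonic bases with HNRNPUL1 on the opposite strand, which was positive (0.29) at 649 CPM, and the strand setting of the read counting is not given, so reads of the pair may be mixed. TGFB2 was at -0.21 (15.2 CPM) and TGFB3 at 0.07 (5.12 CPM), and neither was called (adjusted p = 0.0876 and 0.781). After removal of trends on transcript length and GC content, TGFB2 passed on the negative side at -0.34 (adjusted p = 0.00177).

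BMP transcripts were scarcer, with levels from 0.976 to 14.2 CPM over the 5 BMP ligands. BMP2, a potent inducer of bone and mesoderm, was at -0.35 (SE 0.14, 6.37 CPM, adjusted p = 0.0432), and it lost its call with re-centring on the median gene (adjusted p = 0.0554) or on ribosomal proteins (0.122). BMP6, a regulator of hepcidin and iron balance, was positive at 0.94 (SE 0.35, adjusted p = 0.0233). Its level was only 0.976 CPM, with implied group levels of 1.29 and 0.668 CPM. BMP4 (-0.16, 11.3 CPM), BMP8A (-0.17) and BMP8B (-0.06) were not called, and the last of these are near-identical copies that can share reads. BMP1, named with the BMPs but encoding a procollagen protease, was at 0.01 with an interval from -0.12 to 0.14 at 35.5 CPM.

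The inhibin and activin subunit genes lay close to 1 CPM. INHBB, which encodes the subunit of activin B, was at 0.84 (SE 0.35, 0.988 CPM) with an adjusted p of 0.0501, just outside the threshold. It passed when p was adjusted over the 15794 genes of the table alone (adjusted p = 0.0428). INHBC (0.18) and INHBE (0.21) had adjusted p of 0.785 and 0.702, and their intervals reached from -0.60 to 0.95 and from -0.46 to 0.87.

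Latent TGF-beta binding proteins, which hold the ligand in the matrix, gave 2 negative calls of 4. LTBP1 was at -0.86 (SE 0.18, 3.86 CPM, adjusted p = 1.79e-05), or 1.81-fold, with implied levels of 2.74 CPM in the TFDP1-high group and 4.97 CPM in the other. The far more abundant LTBP3 was at -0.37 (SE 0.06, 79.7 CPM, adjusted p = 1.07e-07). LTBP4, at a similar level of 63.9 CPM, had a smaller value of -0.14 with an interval from -0.29 to 0.00 and was not called. LTBP2 was at 0.14 (2.12 CPM, adjusted p = 0.705).

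TGF-beta receptors were the called part of the receptor family. TGFBR2, the type II receptor that binds TGF-beta first, was positive by 1.52-fold (0.61, SE 0.10, 14.4 CPM, adjusted p = 1.36e-08), with implied levels of 17.4 and 11.4 CPM. Its type I partner TGFBR1 was positive by 1.16-fold (0.22, SE 0.08, 109 CPM, adjusted p = 0.0160). After removal of trends on transcript length and GC content, TGFBR2 kept its call at 0.56 and TGFBR1 did not, at 0.05 (adjusted p = 0.625). The co-receptor TGFBR3, betaglycan, was at 0.11 (13.3 CPM) and endoglin, ENG, at 0.40 with a level of 0.327 CPM and an SE of 0.63.

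BMP and activin receptors gave 0 calls of 8. BMPR2, the BMP type II receptor, came closest, at 0.20 (SE 0.09, 53.6 CPM, adjusted p = 0.0562), and it passed with re-centring on the median gene (adjusted p = 0.0239). After removal of the length and GC trends it lay at -0.01, on the other side of 0, and was not called. The BMP type I receptors BMPR1A (-0.09, 37.9 CPM), BMPR1B (-0.06, 12.1 CPM) and ACVR1 (-0.05, 19.6 CPM) had intervals that spanned 0. The activin receptors ACVR1B (-0.13, 61.1 CPM), ACVR2A (-0.16, 19.2 CPM) and ACVR2B (0.12, 46.6 CPM) were likewise not called, although ACVR2B passed when re-centred on ribosomal proteins (0.21, adjusted p = 0.0212). ACVR1C, a receptor for Nodal, was at 0.692 CPM and ACVR2B-AS1, the antisense RNA beside ACVR2B, at 2.32 CPM with a fold change of 0.08. With the trends removed BMPR1A (-0.27) and ACVR2A (-0.31) passed on the negative side.

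**Figure D2:**
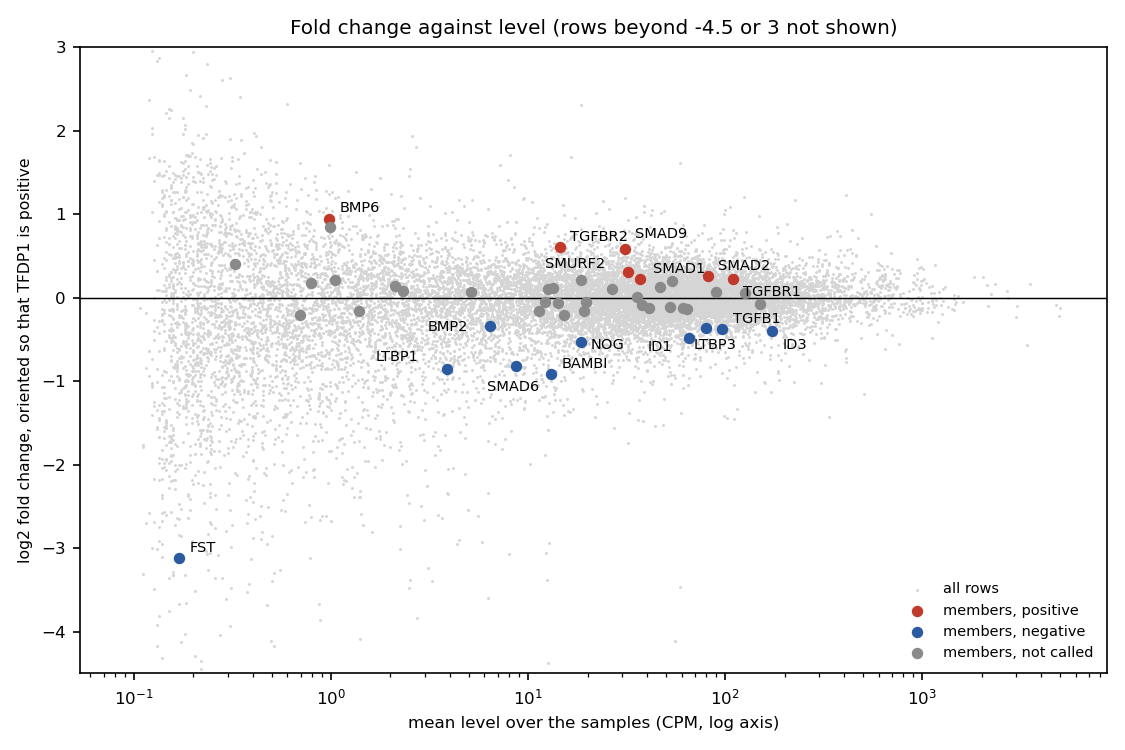
Log2 fold change (y axis) against the mean level over the samples in CPM (x axis, log scale) for the genes in the table (light grey, those beyond the y axis range not drawn) and the members (large points, coloured by call). TGFBR2 and SMAD9 stand above and BAMBI, SMAD6 and LTBP1 below the members of similar level, while FST and BMP6 sit under 1 CPM.

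Of the 8 SMAD genes in the table, 3 were positive and 1 negative. SMAD9, the least abundant of the BMP-regulated SMADs at 30.8 CPM, was positive (0.59, SE 0.08, adjusted p = 6.26e-12), with implied levels of 37.0 and 24.7 CPM. SMAD1 was positive by 1.16-fold (0.22, SE 0.07, 37.0 CPM, adjusted p = 0.00500). SMAD5, with the highest level of the 3 at 126 CPM, or 18.0 CPM per kb, was at 0.06 with an interval from -0.03 to 0.15. On the TGF-beta and activin side SMAD2 was positive by 1.19-fold (0.26, SE 0.05, 81.4 CPM, adjusted p = 1.04e-06), and SMAD3 was at -0.11 (52.3 CPM, adjusted p = 0.13). The shared partner SMAD4 was at 0.07 (89.4 CPM, adjusted p = 0.378); it passed when re-centred on ribosomal proteins (0.15, adjusted p = 0.0156) and lay at -0.11 with the trends removed.

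SMAD6 and SMAD7, the inhibitory SMADs, had different values. SMAD6, which mainly restrains BMP signalling, was negative by 1.76-fold (-0.81, SE 0.14, adjusted p = 2.03e-07) at 8.68 CPM, with implied levels of 6.29 CPM in the TFDP1-high group and 11.1 CPM in the other. SMAD7, which restrains both branches, was at 0.10 with an interval from -0.12 to 0.31 at 12.6 CPM. The interval of SMAD6, from -1.10 to -0.53, did not overlap that of SMAD7, but their difference was not tested. Removing the trends ended the calls of SMAD1 (0.13, adjusted p = 0.113) and SMAD2 (0.06, 0.346), and left those of SMAD9 (0.48) and SMAD6 (-0.76). It also gave negative calls to SMAD3 (-0.17, adjusted p = 0.0125) and SMAD5 (-0.13, 0.0125). The direction of SMAD5 thus depended on the setting, since re-centring on ribosomal proteins called it positive (0.14, adjusted p = 0.00567). For SMAD2 the longest annotated transcript has 34526 bases; with the median coding transcript as the length instead, it passed (0.17, adjusted p = 0.00193) and SMAD1 again did not (0.149).

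**Figure D3:**
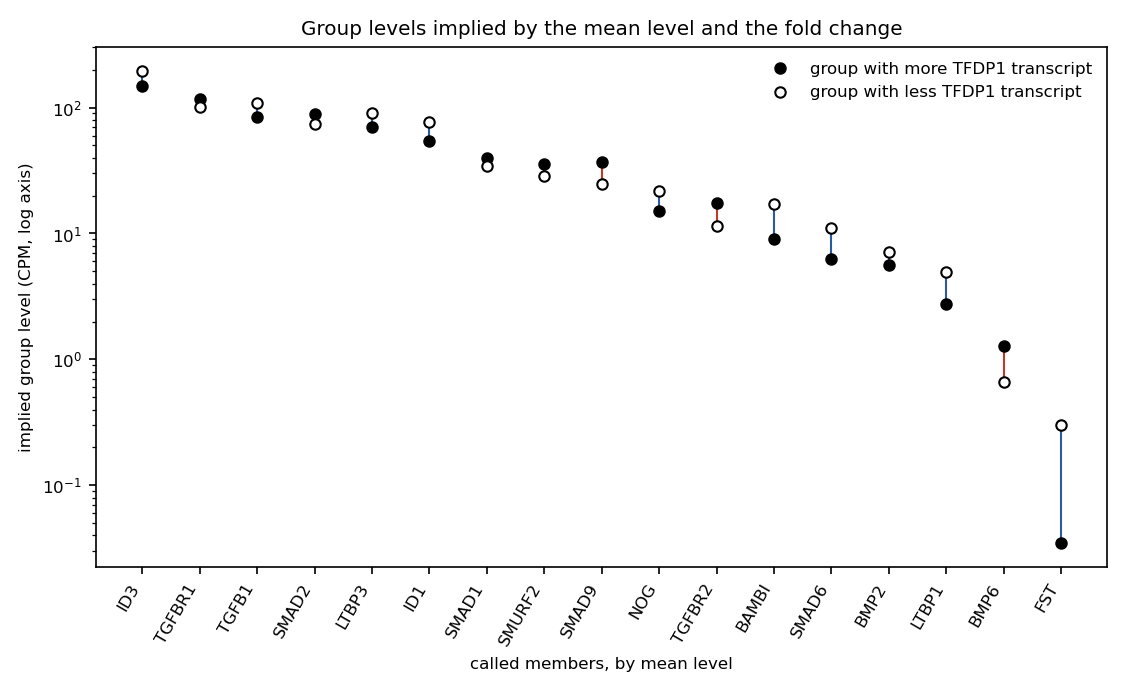
Group levels in CPM (y axis, log scale) implied by the mean level and fold change of each called member, ordered by level, with filled points for the TFDP1-high group and open points for the other; no replicate error is known. The gap is widest for FST, at 0.035 against 0.303 CPM, and spans 9.02 to 17.0 CPM for BAMBI.

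Antagonists that act at the ligand or receptor were negative in 3 of 3. BAMBI, a decoy receptor that lacks the kinase and is itself induced by the pathway, was negative by 1.89-fold (-0.92, SE 0.12, 13.0 CPM, adjusted p = 1.35e-12). The BMP-binding protein noggin, NOG, was negative by 1.45-fold (-0.54, SE 0.13, 18.5 CPM, adjusted p = 1.86e-04). Follistatin, FST, which binds activin, had a log2 fold change of -3.12 (SE 0.99, adjusted p = 0.00686) at a level of 0.169 CPM, the lowest of the members. Few reads lie behind this value, and its interval from -5.07 to -1.17 covers a wide range of folds.

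Intracellular restraints were mostly not called. SMURF2, a ubiquitin ligase that directs SMADs and receptors to degradation, was positive by 1.23-fold (0.30, SE 0.07, 32.2 CPM, adjusted p = 2.69e-04). That call was lost with the length and GC trends removed (0.16, adjusted p = 0.0865), and kept where the median coding transcript served as the length (0.19, 0.0349). SMURF2 also shares exonic bases with CEP95 on the opposite strand, which was at 0.10 (30.3 CPM, adjusted p = 0.319) and was not called. The related SMURF1 was at -0.13 (41.0 CPM, adjusted p = 0.240). The corepressors SKI (-0.08, 150 CPM, adjusted p = 0.108) and SKIL (0.10, 26.5 CPM, 0.381) were at opposite signs within 0.10 of 0.

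ID1 and ID3 were negative and ID2 was not. ID3 had the highest level of all members, 173 CPM or 138 CPM per kb, and was negative by 1.32-fold (-0.40, SE 0.06, adjusted p = 1.38e-11). ID1, at 65.7 CPM or 53.3 CPM per kb, was negative by 1.40-fold (-0.49, SE 0.10, adjusted p = 1.65e-05). Implied levels in the TFDP1-high group and the other were 149 and 197 CPM for ID3 and 54.7 and 76.7 CPM for ID1. ID2 was at 0.21 (SE 0.09, 18.5 CPM) with an adjusted p of 0.0506, just outside the threshold, and it passed on the positive side under re-centring (adjusted p = 0.0215 on the median gene) and with the trends removed (0.00556). Per kb of the longest transcript, ID3, ID1 and TGFB1 were the 3 most abundant members. That order depends on the length used. The median coding transcripts of SMAD5 and TGFBR1 have 758 and 680 bases, against 7012 and 6516 for their longest.

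**Figure D4:**
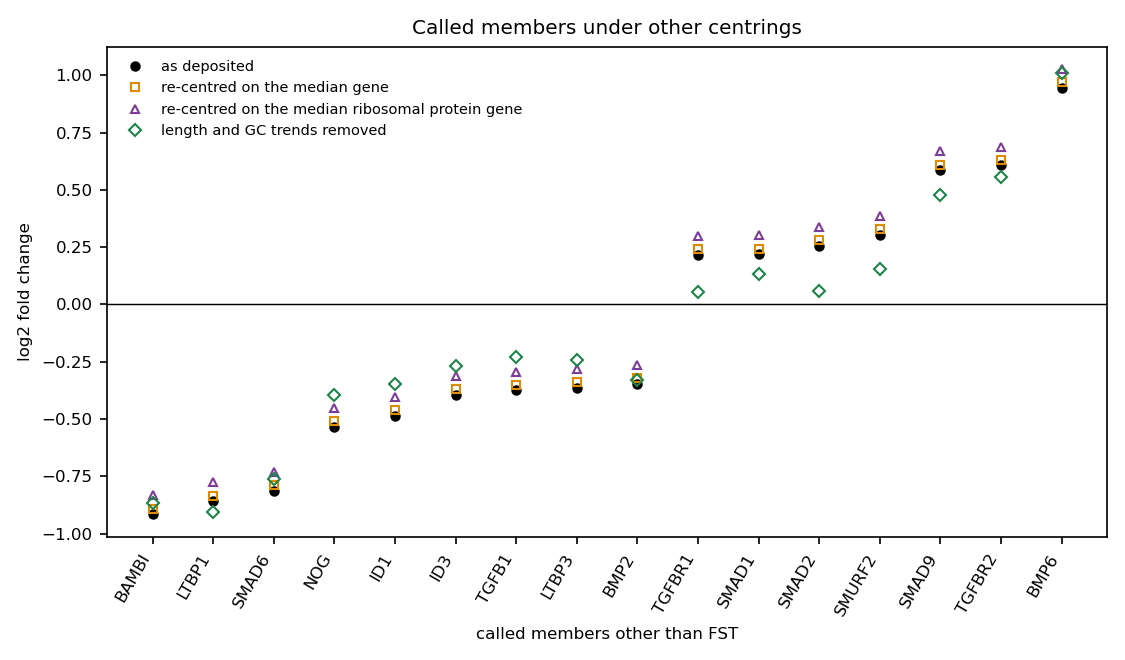
Log2 fold change (y axis) of the 16 called members other than FST (x axis) as deposited, re-centred on the median gene or on ribosomal protein genes, and after removal of trends on transcript length and GC content. All keep their sign, while TGFBR1 and SMAD2 come within 0.06 of 0 once the trends are removed.

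Pathway genes outside the symbol rule were taken from lists of 125 names, of which 101 were in the table, TFDP1 left aside. Of these, 17 were called positive and 33 negative (49.5%, against 39.5% of all genes), with a median log2 fold change of -0.04. Of the 101, 55 lay at or above the median level, with 16 positive and 17 negative calls. At that level 51.9% of all genes were called. Re-centred on ribosomal proteins, the split of the 101 was 28 positive and 24 negative.

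Of 13 genes that process or free the ligands, 7 were negative and 0 positive (median -0.24). Over all genes the shares were 22.2% negative and 17.3% positive. Of the 13, 5 lay at or above the median level. Over all genes, calls were 2738 positive and 3506 negative, and 2006 and 2090 from that level upwards. The part of level in this count was not tested. THBS1, encoding thrombospondin, an activator of latent TGF-beta, was at -1.63 (SE 0.21, 2.93 CPM). FURIN, the protease that cleaves the precursors, was at -0.32 (SE 0.05, 75.4 CPM), and LRRC32, which anchors latent TGF-beta at the cell surface, was at -1.08 (2.13 CPM). NRROS, ITGB8, FBN1 and FBN2 made up the other negative calls, and the integrin gene ITGAV was at 0.01 (68.2 CPM). These calls lay on the same side as those of TGFB1, LTBP1 and LTBP3. Markers of fibroblast and mesenchymal cells were on that side too, 6 negative and 0 positive of the 7 in the table of 12 listed. Their implied summed levels were 468 CPM in the TFDP1-high group and 683 CPM in the other. The median level of the 7 was only 4.12 CPM, and a single marker made up most of the sums. COL1A2, COL3A1, DCN, FAP and LUM of that list were not in the table analysed. What the markers of this list share with the result was not tested.

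Called shares were 44.4% for 9 other ligands, 57.1% for 7 other receptors and co-receptors and 50% for 12 other secreted antagonists. Over all genes 39.5% were called, 22.2% negative and 17.3% positive. In these lists 1, 3 and 4 genes lay at or above the median level. Other ligands gave 4 negative and 0 positive calls of 9, led by the stress-induced GDF15 (-1.22, SE 0.14, 15.7 CPM), GDF3 (-2.95 at only 0.472 CPM) and GDF11 (-0.27, 46.6 CPM). Other receptors and co-receptors gave 1 positive and 3 negative of 7, with the semaphorin and VEGF co-receptor NRP1 at 0.77 (SE 0.06, 46.8 CPM), the BMP co-receptor RGMA at -0.35 and the Nodal co-receptor TDGF1 at -0.85 (1.85 CPM). Other secreted antagonists gave 2 positive and 4 negative of 12. SOSTDC1, a BMP and WNT antagonist, had the lowest value of the 101 genes, -3.38 (SE 0.26, 2.51 CPM), or 10.4-fold, followed by the BMP-binding CRIM1 at -0.82 (SE 0.08, 26.4 CPM), and FSTL1 was positive at 0.18 (127 CPM).

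Intracellular components had medians above 0. Their levels were also higher, with medians of 70.8 CPM for adaptors and ubiquitin enzymes and 45.3 CPM for nuclear partners. The ligand processing genes had a median of 4.93 CPM. Over all genes at or above the median level, positive and negative calls were nearly even, 2006 and 2090. The part of level in these medians was not tested. Adaptors and ubiquitin enzymes numbered 23, of which 5 were positive and 3 negative (median 0.07). Their called share was 34.8%, against 39.5% of all genes and 51.9% of those at or above the median level, where 21 of the 23 lay. NEDD4L, a ubiquitin ligase for activated SMAD2 and SMAD3, was at 0.53 (SE 0.08, 90.0 CPM), whereas STUB1 (-0.34) and USP11 (-0.17) were negative. Nuclear SMAD partners numbered 16, of which 7 were positive and 2 negative (median 0.15). The called share of these partners was 56.25%, and 13 of the 16 lay at or above the median level. SP1 was at 0.51 (SE 0.05, 113 CPM), the SMAD3 antagonist MECOM at 0.53 (42.0 CPM) and the corepressor TGIF1 at -0.55 (42.1 CPM). The partners that share the SMAD3 complex with DP1 differed in sign, with RBL1 (p107) at 0.47, E2F5 at -0.31 and E2F4 at 0.01, not called.

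Transcripts known to rise with TGF-beta or BMP signalling numbered 21, of which 10 were negative and 2 positive (median -0.36). Over all genes the shares were 22.2% negative and 17.3% positive. Of the 21, 8 lay at or above the median level, and the part of level in this count was not tested. CYR61 was at -0.72 (SE 0.05, 410 CPM), TPM1, a tropomyosin, at -0.87 (SE 0.06, 104 CPM) and the CDK inhibitor CDKN1A at -0.89 (SE 0.13, 145 CPM). CTGF (-0.47), JUNB (-0.36), DLX5 (-0.48), MSX2 (-0.27), HEYL (-0.42), TAGLN (-0.57) and COL1A1 (-0.28) were also negative, while FN1 (0.25) and KLF10 (0.26) were positive. Each of these genes answers to other pathways as well. COL1A1 is also in the fibroblast list, whose 6 negative calls lay on the same side. What these markers share with the result was not tested.

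**Figure D5:**
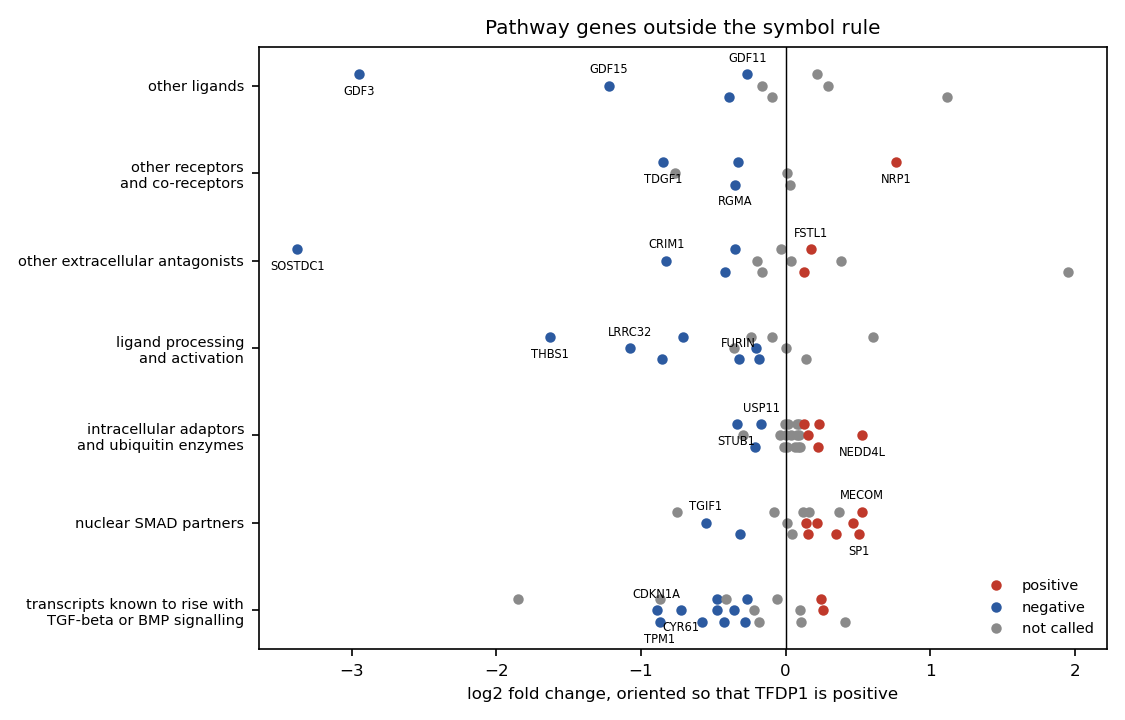
Log2 fold change (x axis) of the 101 pathway genes outside the symbol rule, by list (y axis, with vertical offsets only to separate points) and coloured by call at the authors' FDR under 0.05; the called genes with the smallest p in each list are named. Ligand processing genes show 7 blue and 0 red points, and the nuclear partners 2 blue and 7 red. Over all genes 22.2% were called negative and 17.3% positive.

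Markers of the lineages these cells could resemble were mostly low or not in the table analysed. Of 20 blood markers 9 were in it, 1 called positive and 3 negative, with levels up to 81.0 CPM for GATA2 and implied summed levels of 116 CPM in the TFDP1-high group and 128 CPM in the other. PTPRC, which encodes the pan-leukocyte antigen CD45, was not among the 9. Epithelial markers gave 3 negative calls of 6, with implied summed levels of 43.8 and 79.5 CPM, and endothelial markers 0 calls of 2. Over all genes 39.5% were called. A single marker made up most of the blood sum (GATA2, 81.0 of 122 CPM at the mean level) and of the epithelial sum (40.0 of 61.6 CPM). The median level of the epithelial markers was 3.98 CPM. In bulk RNA, fewer cells that carry a transcript and less of it per cell cannot be told apart.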

How the data were processed

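Poly(A) RNA of 6 samples was sequenced on a HiSeq4000 after NEBNext Ultra II library preparation, per the labels' protocols. Builds hg38 and dm6 and the tools Trimmomatic, HISAT2, featureCounts and edgeR, without versions, appear in the submitters' processing notes. The authors deposited a log2 fold change and a log2 CPM for each gene. The p-value and FDR are the authors' own, from edgeR's likelihood ratio (column LR per the file headers), which is treated here as a score; a chi-square of it on 1 degree of freedom gave the deposited p-values within 1%. For library scaling, strand setting and fold reference nothing was found: not given in the sources used here. Nothing says whether replicates were separate cultures, so p-values measure the spread between these samples.

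Since the table holds no values per sample, no model was refitted; this is the form the planned design took for a comparison table. Genes were called at FDR under 0.05. The alternatives were FDR under 0.01, Benjamini-Hochberg adjustment over the rows, genes at or above the median level, a 1.5-fold minimum, re-centring on the median of all genes (-0.03) or of 77 ribosomal protein genes (-0.08), and removal of trends on transcript length and GC content (lowess, span 0.3), with p from the approximate SE. GENCODE 29 on GRCh38 matched 14777 genes (93.6%) by symbol, and all 47 members. All called members are named, those not called with their values, and of the other lists the 3 called genes with the smallest p; further genes of those lists were named after their values were seen. The members and lists were chosen with earlier results of these data known. Scripts were tested on simulated data. Python 3.11.15, numpy 2.4.6, pandas 2.3.3, scipy 1.17.1, statsmodels 0.14.6 and matplotlib 3.10.9 were used. The values of 1 listed gene are not reported here.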

Additional observations from a re-analysis of the deposited data

How the results depend on the processing

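No paired analysis was possible because the table holds 1 comparison and no values per sample, and for the same reason no replicate could be left out. The 17 called members kept their sign under every re-centring and trend removal, and 6 (LTBP1, TGFBR2, SMAD6, SMAD9, BAMBI and FST) kept their call under every alternative they entered. Member counts of 7 positive and 10 negative became 3 and 4 with a 1.5-fold minimum; with the filter on the median level 4 were negative, and re-centring on ribosomal proteins gave 13 positive. Other pathway genes, 17 positive and 33 negative, became 1 and 12 with a 1.5-fold minimum; at or above the median level 17 were negative, and re-centred on ribosomal proteins 28 were positive. Fewer genes entered under the level filter, and the cause of the other moves was not tested. Removing the trends ended 5 member calls and added 2 positive and 5 negative ones with the longest transcript as length (5 positive and 14 negative in all). With the median coding transcript, a length chosen after seeing the data, it ended 2 and added 2 positive and 3 negative (7 and 13 in all). Approximate SEs of the members ran from 0.04 at SKI to 0.99 at FST, and the 6 members under 1 CPM are the least certain.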
